A study of Capsella orientalis and Capsella grandiflora with 23 samples.

Results

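In C. grandiflora cross pair 1, 255 genes were read almost wholly from a single accession of the pair, whichever way the cross was made. They were chosen from 11042 genes with at least 20 reads over exonic SNPs in each of the 2 cross directions, out of 16105 genes with an exonic SNP in that pair. A gene was a member when its maternal share, the percentage of allele-assigned reads that carried the mother's allele, was at least 90% in one direction and at most 10% in the other. The members made up 2.31% of the genes tested, which is the outcome of the rule itself. Of these, 106 were read from the accession that was the mother in direction 1 (0.96% of tested genes) and 149 from the accession that was the mother in direction 2 (1.35%). These 2 accessions are called the direction 1 mother and the direction 2 mother here. The column names state a parent and a direction number but no accession, so neither could be tied to a named plant.

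A reciprocal cross uses each of 2 parents once as mother and once as father, and separates effects of the parent from effects of the allele. An imprinted gene keeps to the mother's or to the father's allele when the cross is turned round, whereas a gene whose expression differs between accession alleles keeps to the accession, so that its maternal share is high in one direction and low in the other. Endosperm, the seed tissue that feeds the embryo, carries 2 maternal genomes and 1 paternal genome in most flowering plants, so a gene read equally from all copies has a maternal share near that dosage.

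The study crossed Capsella grandiflora (Cg), an outcrossing species, among its accessions Cg A and Cg B and among Cg C and Cg D, each in both directions, and the self-fertilising Capsella orientalis (Co) between Co A and Co B in both directions. All RNA libraries came from hybrid endosperm taken 6 days after hand pollination of emasculated flowers, each pooled over 300 to 500 seeds, with no further treatment. The 6 Cg endosperm samples include repeat sequencing runs of the C and D crosses, and the 8 Co samples include replicates and repeat runs. Leaf DNA and bisulfite samples were not analysed here. The 4 allele tables are called Cg pair 1, Cg pair 2, Co pair 1 and Co pair 2, each with directions 1 and 2. Genes are identified by their interval on numbered scaffolds, of a build that neither labels nor headers name. Gene names and sequences were not paired with the intervals, so markers of endosperm, embryo and seed coat were not analysed here. In such bulk samples, fewer cells of a type and less RNA per cell cannot be told apart.

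Depth over exonic SNPs was 8688213 and 8559754 counts in the directions of Cg pair 1, and ranged from 187220 to 871449 in the 6 directions of the other tables. Counts are listed per SNP, so a read that covers several SNPs can be counted at each, and neighbouring SNPs do not give independent counts. The Wilson 95% intervals below treat every count as independent. For a gene with 1 SNP they cover counting error only. For a gene with several SNPs they can be too narrow even for that, and they leave out the spread between SNPs. The same holds for the limits given where an allele had no read. Direction 1 of Cg pair 2 stood apart from the other libraries, with a median maternal share over genes of 54.4%, against 64.7% to 69.1% in the other 7 directions.

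The members' other allele was read at low shares or not at all. For 66 of the 255 members it had no read in either direction, for 65 it had none in 1 of the directions, and for 124 it was seen in both. Its median share was 0.82% where it came from the father (interquartile range 0 to 3.24%) and 0.80% where it came from the mother (0 to 4.52%). In 108 members the read accession supplied at least 99% of the reads in both directions, in 72 its lower share lay between 95% and 99%, and in 75 it lay under 95%. The 2 members nearest the threshold lay on scaffold 4 (8223720 to 8225451, plus strand), with maternal shares of 10.0% in direction 1 and 92.3% in direction 2, and on scaffold 5 (11832087 to 11833783, minus strand), with 10.0% of 20 reads and all of 26 reads. The nearest genes outside it lay on scaffold 8 (547858 to 552327, minus strand), at 97.4% and 10.3%, and on scaffold 5 (13229316 to 13237168, plus strand), at 3.37% and 89.6%. A further 157 genes had a lower share between 80% and 90%.

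**Figure D1:**
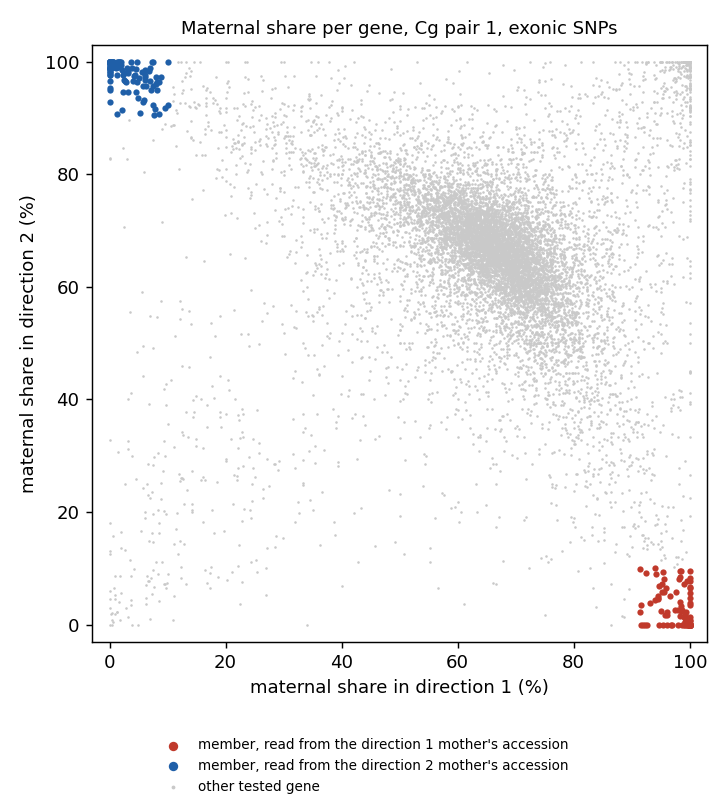
Maternal share (%) of each gene in direction 1 (horizontal) and direction 2 (vertical) of Cg pair 1 over exonic SNPs, 1 point per gene with at least 20 reads in each direction. The 106 red and 149 blue members fill the lower right and upper left corners by the rule that chose them, over the other tested genes (grey), and the median gene lies at 66.7% in direction 1 and 66.9% in direction 2.

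The most deeply read member lay on scaffold 8 (5669417 to 5671839, plus strand) and was read from the direction 2 mother. Its maternal allele had 534 and its paternal allele 12739 reads in direction 1, and they had 21936 and 794 reads in direction 2, or maternal shares of 4.02% (95% interval 3.70% to 4.37%) and 96.5% (96.3% to 96.7%). These counts were spread over 31 exonic SNPs, each with at least 20 reads in both directions, of which 29 met the rule singly. Of these 29, the SNP at position 5669655 ran the other way, with maternal shares of 95.1% and 3.11%, for the direction 1 mother. The SNPs that did not meet the rule were those at 5670059, with 58.3% and 42.7%, and at 5671009, which gave 76.8% and 7.32%. All 3 had the higher share for the direction 1 mother, against the gene as a whole.

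The next in depth from the same accession rested on few SNPs. A gene on scaffold 1 (2494477 to 2495212, plus strand) had maternal shares of 0.29% (0.173% to 0.487%) of 4824 reads in direction 1 and 99.5% (99.2% to 99.7%) of 4177 reads in direction 2, all at 1 SNP. A gene on scaffold 5 (10890947 to 10892732, plus strand) had 0.156% of 1928 reads and 99.8% of 2301 reads at 2 SNPs. On scaffold 1 (3758715 to 3762899, plus strand) and scaffold 7 (3659104 to 3660450, minus strand) the maternal shares were 0.945% and 0.521% in direction 1, and 99% and 99.2% in direction 2, each from 1 SNP. In none of these 4 genes did the other accession have a share above 1% in either direction, but 3 of them had no further exonic SNP with which to compare it.

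The deepest members read from the direction 1 mother had more SNPs. The first, on scaffold 2 (8221609 to 8224004, plus strand), had maternal shares of 98.5% (98.2% to 98.7%) of 7040 reads in direction 1 and 9.54% (8.60% to 10.6%) of 3408 reads in direction 2, close to the threshold, and 6 of its 9 SNPs met the rule singly. Its remaining SNPs gave maternal shares of 10.2%, 17.0% and 16.0% in direction 2, on the same side. Another on scaffold 2 (10267025 to 10268246, minus strand) had shares of 98.6% of 3968 reads and 2.61% of 1264 reads, with 20 of 21 SNPs meeting the rule. These SNPs lay between positions 10267105 and 10267535 and are close enough for 1 read to cover several. The genes on scaffold 2 (3817061 to 3818262, plus strand) and scaffold 8 (6748050 to 6748628, minus strand) had 98.4% in direction 1 each, and 3.96% and 3.25% in direction 2, and all of their 6 and 10 SNPs met the rule. The last of the 5, on scaffold 1 (4315253 to 4315828, minus strand), had a maternal share of 99.6% of 773 reads in direction 1 and no maternal read among 760 in direction 2, which allows up to 0.395%, at 2 SNPs.

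Of the 3 members with the most SNPs, 2 were thinly read at each SNP. The gene with 45 exonic SNPs, on scaffold 4 (1528692 to 1530248, minus strand), had maternal shares of 2.38% of 252 counts and 94.6% of 460 counts, and none of its SNPs reached 20 reads in both directions. Another on scaffold 4 (9227881 to 9228759, minus strand) had 39 SNPs, shares of 3% of 434 counts and 98.9% of 733 counts, and a single SNP of that depth. Both were read from the direction 2 mother. The remaining member of the 3 was the deeply read scaffold 8 gene described above. All of its 31 SNPs had at least 20 reads in both directions.

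Total reads of the members were higher in the direction in which the read accession was the mother. Scaled to the exonic counts of each library, the reads there were a median 1.24 times those in the direction in which it was the father (interquartile range 0.919 to 1.82, above 1 in 170 of 255 members). The ratio was 1.29 for the direction 1 mother, above 1 in 79 of 106 members, and 1.20 for the direction 2 mother, above 1 in 91 of 149. An allele read in proportion to its genome copies would give 2. For the 10787 other tested genes the reads of direction 1 were a median 1.02 times those of direction 2 (0.814 to 1.29). The rule used the same libraries, so these ratios are a description, with no test.

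Members rested on fewer SNPs than other genes. They had a median of 2 exonic SNPs, against 3 in the other tested genes, and 115 of the 255 (45.1%) had 1 SNP, against 2324 of 10787 (21.5%). Among all 2439 genes with 1 SNP 4.72% were members, against 1.23% to 1.80% of the genes with 2 to 19 SNPs. The percentage was 4.19% (9 of 215 genes) at 20 or more SNPs. The lead of the direction 2 mother came from the genes with 1 SNP, where it supplied 79 members and the direction 1 mother 36. With 2 or more SNPs the accessions supplied 70 members each.

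**Figure D2:**
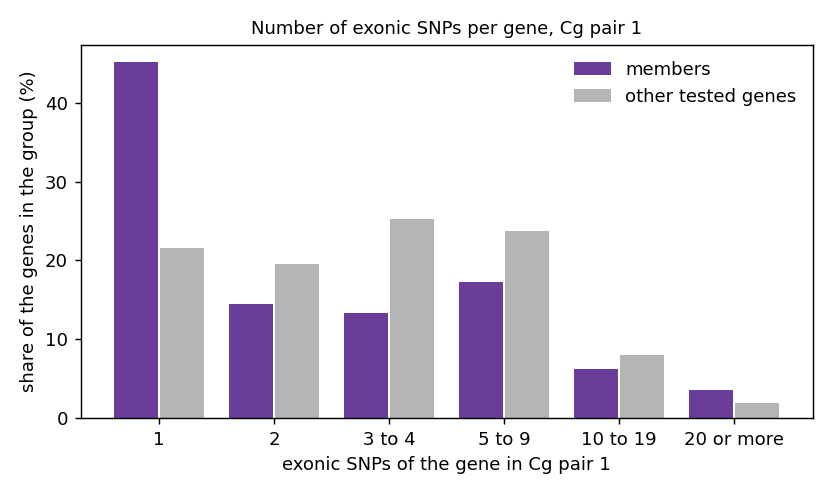
Share of genes (%) by number of exonic SNPs in Cg pair 1, for the 255 members (purple) and the 10787 other tested genes (grey). Genes with 1 SNP were 45.1% of the members and 21.5% of the others.

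Single SNPs lay along the whole gene, at a median of 49.0% of its length from the 5′ end in the members and 52.7% in other genes with 1 SNP. Members were also shorter, with a median interval of 1.79 kb against 2.50 kb, and 17.6% of them (45 genes) spanned under 1 kb, against 6.99% of the other genes. They had fewer reads, a median of 103 and 93 in the directions, against 298 and 291 for the other tested genes, and 88 members had under 50 reads in a direction. These counts grow with the number of SNPs and give the depth behind the shares, not a level. Whether the low SNP number or the low depth had a part in the members' shares was not tested.

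Where a member had several well-read SNPs, most of these SNPs pointed to the same accession. Of all 34089 exonic SNPs with at least 20 reads in each direction, 1023 met the rule singly (3%). In the members 391 of 423 such SNPs met it, and 390 of the 391 pointed to the accession of their gene. Both counts follow largely from the choice of the members. The exception was the SNP at 5669655 in the scaffold 8 gene. These SNPs lay in 204 of the 255 members, and a member with 1 such SNP offers no second one for comparison. Of 57 members with at least 2 such SNPs, all SNPs met the rule in 32, and in 25 at least 1 did not. In 12 of these 25 members at most 50% of such SNPs met it. Among the 32 SNPs that failed, 24 still had at least 80% of reads from the gene's accession in both directions and 4 had under 50% in a direction. These 4 lay in the scaffold 8 gene and on scaffold 3, in the genes at 1226531 to 1230319 (minus strand) and 14560587 to 14563406 (plus strand).

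Reads at SNPs inside the gene interval but outside annotated exons followed the exonic reads in part of the members and ran against them in others. Such SNPs were listed for 114 members, and 48 of these had at least 20 reads there in each direction. The rule was met for the same accession in 10 of the 48 and for the opposite accession in 4, and was not met in 34. Over all 4565 genes with such depth outside exons 16.5% met the rule for either accession, and of the 3548 other tested genes 541 did (15.2%). Both percentages count either accession, so they compare with the 10 and the 4 counted jointly, not with the 10 alone. On the direction of the difference alone, 30 of 48 members had the higher share for the accession that their exons gave. With no relation to the exons, the same and the opposite side would come up about equally often. Whether 30 of 48 differs from that was not tested.

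Among the 4 that turned round was the scaffold 1 gene spanning 7632291 to 7635590 (plus strand). Its exonic reads had maternal shares of 0.221% in direction 1 and 99.6% in direction 2, whereas 10 SNPs outside its exons gave 97.7% of 785 counts and 6.29% of 700 counts. The others were the genes on scaffold 2 (11746540 to 11748290, minus strand), with 93.9% and 5.00% outside exons against 3.21% and 97.9% in them, scaffold 3 (425971 to 428704, plus strand), with 9.88% and 96.3% against 99.1% and 2.06%, and scaffold 7 (9808273 to 9814218, minus strand), with 94.9% and 8.33% against 0% and 100%. All 4 were named after their values were seen. They had 2, 3, 2 and 3 exonic SNPs, but in each of the 4 genes 1 SNP alone had at least 20 reads in both directions. In the scaffold 1 gene the SNP at 7634659 held 1356 and 1273 reads and the other 0 and 2, so its exonic share is in effect that of a single SNP. The sequencing kit named in the labels does not mark strand, so reads from a gene and from an unannotated transcript across it cannot be told apart. The counts carry no phase either, and the allele assigned at each SNP was not checked, so a swapped assignment was not tested. By contrast, the scaffold 8 gene with the most reads gave 9.55% of 2292 counts and 91.7% of 3485 counts outside its exons, and the scaffold 4 gene with 45 SNPs gave none of 161 and 97.8% of 90, both on the side of their exonic reads. Of the deepest members read from the direction 1 mother, the scaffold 2 gene at 8221609 gave 55.6% of 532 and 63.6% of 214 counts outside its exons, and the one at 3817061 gave 79.1% of 479 and 35.4% of 455. Neither met the rule there.

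**Figure D3:**
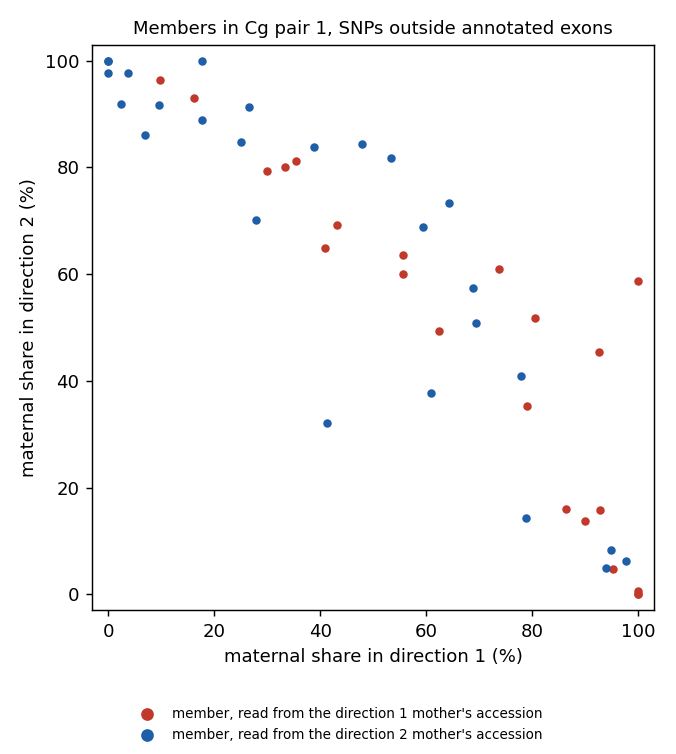
Maternal share (%) in directions 1 and 2 of Cg pair 1 over SNPs outside annotated exons, for the 48 members with at least 20 such reads in each direction. The colours give the accession their exonic reads came from, and 18 of the 48 points lie on the side opposite to it or on neither.

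Members were scattered over the assembly. On scaffolds 1 to 8 they made up from 1.86% (scaffold 8) to 2.85% (scaffold 1, 51 of 1788) of the tested genes, 248 of 10983 in all. On the smaller scaffolds 7 of 59 tested genes (11.9%) were members. In windows of 1 Mb, 101 of 130 held at least 1 member, with a median of 2. The window with the most members was 3000001 to 4000000 on scaffold 2, with 7 among 52 tested genes (13.5%), 4 of the direction 1 mother and 3 of the direction 2 mother. The same interval on scaffold 1 came next by count, with 6 among 113. By percentage 4 windows with fewer tested genes were higher, up to 2 members of 9 (22.2%) at 4000001 to 5000000 on scaffold 4. Members read from the direction 2 mother outnumbered those of the direction 1 mother by 24 to 8 on scaffold 7 and by 35 to 16 on scaffold 1, while on scaffold 6 they numbered 12 against 16.

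Few members were neighbours. For 9 of the 251 members that had a further tested gene downstream on the scaffold, that gene was a member too (3.59%, beside 2.31% of all tested genes). These formed 9 pairs and no longer run, and the genes of a pair were read from the same accession in 4 cases and from different ones in 5. On scaffold 1 the genes at 4721760 to 4723163 and 4723436 to 4724717, both on the minus strand and less than 1 kb apart, were both read from the direction 2 mother, with maternal shares of 0.775% and 4.82% in direction 1, and 99.6% and 93.6% in direction 2. Also on scaffold 1, the minus-strand genes at 18129921 to 18132346 and 18140543 to 18143974 went opposite ways, with 95.3% and 3.22% in direction 1, and 7.14% and 98.3% in direction 2. On scaffold 2 the genes at 3284538 to 3285675 and 3328949 to 3330673 (both minus strand) also differed, with all of 58 reads maternal and 8.16% in direction 1, and 1.35% and 95% in direction 2. Members seldom overlapped another gene interval (6 genes, 2.35%, against 7.84% of the other tested genes).

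Cg pair 2, a table the rule did not use, had enough reads for 49 members. Which accessions it covers could not be worked out, and some of its SNP positions were those of pair 1. An exonic SNP was listed there for 176 of the 255, of which 127 had under 20 reads in a direction, and no exonic SNP was listed for 79. Of the 49, 43 did not meet the rule, and their shares ranged widely. The rule was met by 6 (12.2%), against 5.21% of all 4948 genes tested in that table and 163 of 3649 (4.47%) of the other genes tested in both pairs. The median difference between the directions, without its sign, was 29.1 percentage points in the members (interquartile range 13.9 to 66.7), against 20.5 in those other genes (9.38 to 41.5). With 1 library per direction no test was made, and among the members with 2 or more SNPs in pair 1 the count was 1 of 18 (5.56%), near the background. Of the SNP positions of the members 4.60% (49 of 1066) also appeared in pair 2, against 8.71% of those of the other tested genes.

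All 6 were read in pair 2 from its direction 2 mother, as were 252 of the 258 genes that met the rule there (5.09% of tested genes, against 0.121% for its direction 1 mother). All 6 were also read from the direction 2 mother in pair 1, as were 33 of the 49 members tested in pair 2. Nothing in the files ties the accessions of the pairs together. Direction 1 of pair 2 had the low median maternal share given above, and whether that had a part in the count was not tested. Over all tested genes of pair 2, 134 had a maternal share of at least 90% in direction 1 and 479 one of at most 10%. The counts in direction 2 were 475 and 17. In direction 2 alone, 9 of the 49 members had a maternal share of at least 90% and none had one of at most 10% (18.4%, against 9.94% of all tested genes beyond either limit). In direction 1 alone, 2 members had at least 90% and 10 had at most 10% (24.5%, against 12.4%).

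Of the 6, the scaffold 1 gene at 7632291 was the most deeply read. In pair 2 it had maternal shares of 2.38% (0.813% to 6.77%) of 126 reads in direction 1 and 99.4% (96.8% to 99.9%) of 173 reads in direction 2. Another scaffold 1 gene, spanning 1102975 to 1103259 (minus strand), had 3.33% of 60 reads, and all of 196 reads were maternal in direction 2, which allows down to 98.5%. On scaffold 2 the genes at 13425715 to 13427301 (plus strand) and 3142826 to 3144727 (minus strand) had no maternal read among 34 and 25 in direction 1, which allow up to 8.82% and 12%, and no paternal read among 32 and 26 in direction 2, which allow up to 9.38% and 11.5%. On scaffold 3 the gene at 941958 to 947375 (plus strand) had a maternal share of 6.90% of 29 reads in direction 1, and the gene at 5419544 to 5420439 (minus strand) had no maternal read among 32. All of their 33 and 21 reads were maternal in direction 2. Each of the 6 had 2 or 3 exonic SNPs in pair 2, and 5 of them had 1 in pair 1, the scaffold 1 gene at 7632291 having 2.

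The members with the most reads in pair 2 that did not meet the rule had many more SNPs there than in pair 1. Reads were summed over SNPs, so choosing genes by reads in pair 2 favours those with many SNPs there. Over the 49 members tested in pair 2 the median was 4 exonic SNPs. On scaffold 1, the gene spanning 18910565 to 18913116 (minus strand) had maternal shares of 67.0% (63.1% to 70.7%) and 73.6% (70.2% to 76.8%) over 10 SNPs, against 0.794% and 99.8% over 2 SNPs in pair 1, where 8 SNPs outside its exons gave 3.70% and 97.7%. The scaffold 1 gene at 3758715 had 69.4% and 71.7% over 10 SNPs in pair 2, near the dosage. The genes on scaffold 7 (9549030 to 9554746, plus strand) and scaffold 2 (1141457 to 1144831, plus strand) had 33.2% and 43.1% in direction 1, and 79.4% and 66.4% in direction 2, over 16 and 19 SNPs, each after 1 SNP in pair 1. In the scaffold 7 gene the pair 1 SNP, at 9554339, was also listed in pair 2, and there it had 0 maternal and 32 paternal reads in direction 1, and 37 maternal and 0 paternal reads in direction 2. The SNP beside it, at 9554277, had 0 and 27 reads, and 30 and 0 reads, so these SNPs showed the pattern of pair 1 while the gene's sum did not. At the pair 1 SNP of the scaffold 2 gene, 1142067, the counts were 5 maternal and 15 paternal, and 2 maternal and 4 paternal. In the gene at 18910565 a pair 1 SNP, 18911849, had 25 maternal and 18 paternal reads in direction 1, and 50 and 17 in direction 2, without that pattern. Among the 6 that met the rule, the gene at 1102975 had its pair 1 SNP, 1103208, in both tables, with 0 maternal and 29 paternal reads in direction 1 of pair 2, and 99 and 0 in direction 2. Of the 10 most deeply read members named first above, the scaffold 1 gene at 4315253 was the other one with enough reads in pair 2, at 57.1% of 49 and 58.1% of 148 reads. Its pair 1 SNP at 4315426 had 6 maternal and 0 paternal reads there in direction 1, and 8 and 14 in direction 2. These few reads leaned to the direction 1 mother of pair 2, unlike the gene's sum.

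**Figure D4:**
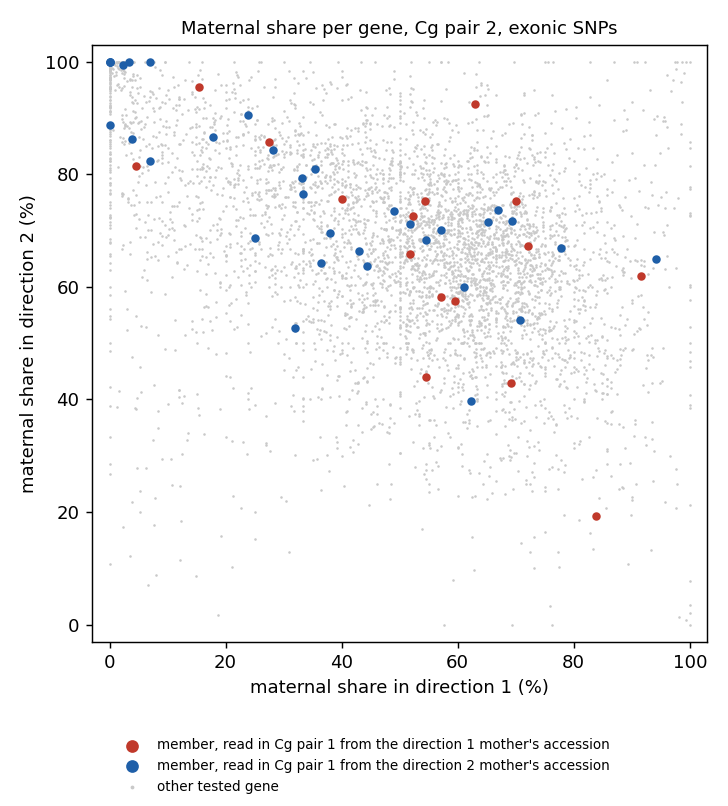
Maternal share (%) in directions 1 and 2 of Cg pair 2 for the 49 members with at least 20 exonic reads in each direction, coloured by the accession read in Cg pair 1, over the other genes tested there (grey). Of the members, 6 lie in the upper left corner and 43 outside the corners of the rule.

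In Co, 15 of the members had at least 20 exonic reads in each of the 4 directions. An exonic SNP was listed for 52 members in Co pair 1 and 51 in Co pair 2. The accession difference was tested with edgeR's quasi-likelihood test over all 1213 genes with such depth, with the library as a block and the parent of origin as a term, taking a direction number to mean the same cross in both tables. The columns do not say whether the Co tables hold separate replicates or repeat runs of the same libraries, and in the second case the p-values are too small. An accession difference was called in 4 of the 15 members, beside 207 of 1213 genes (17.1%). The median size of the log2 accession difference was 0.53 in the 15 members and 0.37 in all tested genes. The median signed difference over all genes was -0.10, and 0.00 with TMM scaling. DESeq2 called 3 of the 15 and 15.5% of all genes. The share rule was met by 2 members in each Co table, out of 15 tested in pair 1 (background 5.28%) and out of 22 in pair 2 (7.44%), and they were the same 2 genes. Of the pair, 1 gene was read in both tables from the direction 1 mother (background 3.09% in pair 1 and 3.37% in pair 2) and 1 from the direction 2 mother (2.19% and 4.07%).

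The scaffold 1 gene at 7632291 was read from 1 accession in Co as well. Its maternal share in Co pair 1 was 100% of 133 reads in direction 1, which allows down to 97.7%, and 0 of 78 reads in direction 2, which allows up to 3.85%. In Co pair 2 all of 380 reads were maternal in direction 1 and none of 248 in direction 2, which allow down to 99.2% and up to 1.21%. The direction 1 mother thus gave 839 reads and the direction 2 mother none, at least 279.7-fold higher with the floor of 3 counts taken over the 4 libraries (edgeR adjusted p = 5.03e-05). These reads came from 1 SNP. The gene met the rule in all 4 tables, and is 1 of the 4 whose reads outside exons turned round in Cg pair 1.

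The other gene that met the rule in Co lay on scaffold 7 (14966161 to 14966652, minus strand). Its Co maternal shares were 9.09% of 198 reads and 99.1% of 110 reads in pair 1, and 3.36% of 298 reads and 96.4% of 248 reads in pair 2. The log2 accession difference, direction 1 mother over direction 2 mother, was -4.61 ± 0.36 (SE, 4 libraries, edgeR adjusted p = 6.53e-05). It too rested on 1 SNP, in Co as in Cg pair 1, where its shares were 1.46% and 99.1%.

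Both further calls were smaller. On scaffold 1, 9125667 to 9127600 (plus strand) had Co maternal shares of 77.3% in direction 1 and 56.7% in direction 2 of pair 1, with 78.4% and 57.8% in the directions of pair 2. Its log2 accession difference was 0.69 ± 0.13 (edgeR adjusted p = 0.00602), and the call was lost without direction 2 of Co pair 1 (adjusted p = 0.0637) and without the library block (0.0857). On scaffold 2, 3196218 to 3197560 (minus strand) had 32.7% and 66.7% in pair 1, with 33.5% and 66.7% in pair 2, a difference of -1.0 ± 0.26 (edgeR adjusted p = 0.0307). Its call was lost with DESeq2 (adjusted p = 0.0841), without the block (0.219), and without direction 2 of Co pair 1 (0.158) or of Co pair 2 (0.247).

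The most deeply read member in Co was not called. This member, on scaffold 6 (6317114 to 6319295, plus strand), which overlaps another gene interval, had maternal shares of 71.5% and 65.7% over 28 SNPs in Co pair 1, with 71.7% and 67.2% over 26 SNPs in Co pair 2. Its log2 difference was 0.17 ± 0.07 (edgeR adjusted p = 0.161, and 0.042 with TMM, where it was 0.28). In Cg pair 1 the same gene had 91.4% and 9.94% at 1 SNP. The genes on scaffold 4 at 585661 to 586924 (plus strand) and 5757097 to 5758549 (minus strand) had log2 differences of 0.46 ± 0.24 and 0.53 ± 0.31, and the one on scaffold 8 at 8546884 to 8549398 (minus strand) had -0.55 ± 0.25 (edgeR adjusted p from 0.204 to 0.343). Not every uncalled difference was small. The scaffold 2 gene at 13425715, which met the rule in Cg pair 2, had -1.85 ± 0.67 (edgeR adjusted p = 0.117). Its accessions had 46 and 119 Co reads. It was called without direction 1 of Co pair 1 (edgeR adjusted p = 0.000202) and without the library block (0.0471), and in no other alternative. For 195 of the 255 members none of the other 3 tables reached 20 reads in both directions.

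**Figure D5:**
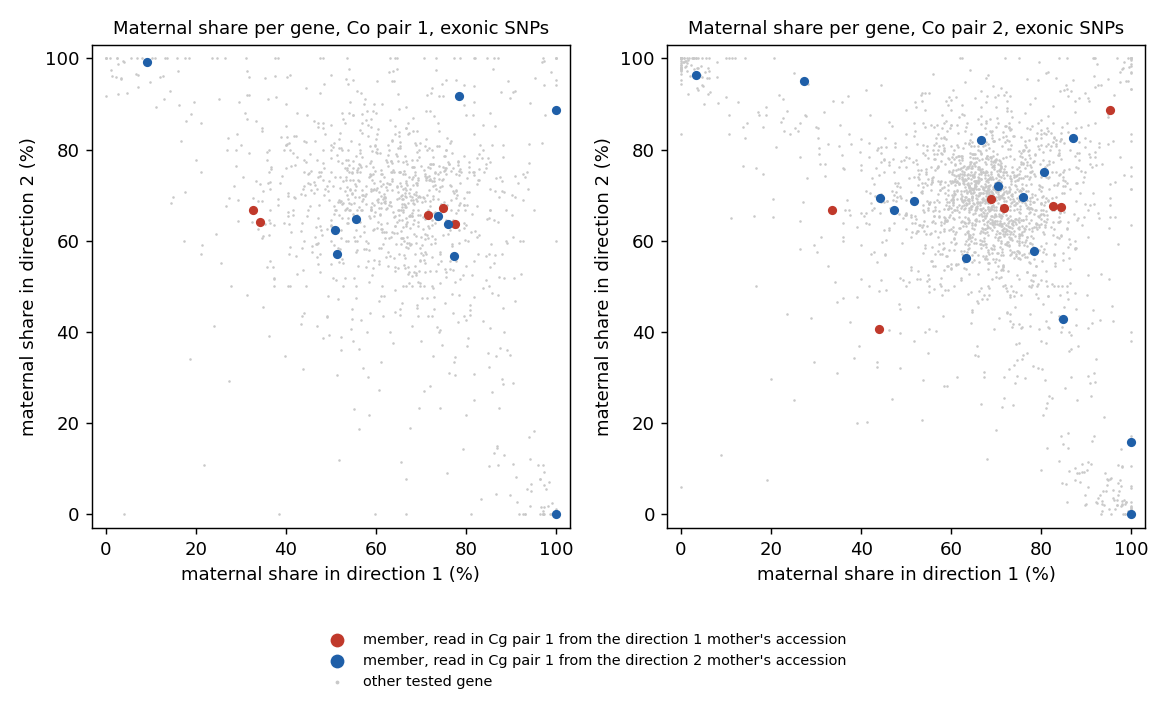
Maternal share (%) in directions 1 and 2 of Co pair 1 (left) and Co pair 2 (right) for members with at least 20 exonic reads in each direction of that table, coloured by the accession read in Cg pair 1, over the other genes tested there (grey). In each panel 1 member lies in the upper left and 1 in the lower right corner within the rule, and the others, 13 and 20, lie outside the corners.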

How the data were processed

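The authors deposited tables of whole-number allele counts per SNP, with a maternal and a paternal column for each of 2 cross directions and intervals of exon and gene, per the file headers. The submitters' processing notes list the tools Bowtie2, Bismark and Trimmomatic and say nothing of what each did. For build, annotation, SNP caller and aligner of the RNA reads the sources used here give no name. Left unused were 24 columns of every table.

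Deposited counts were summed over exonic SNPs per gene interval. Members were the genes with at least 20 reads in each direction of Cg pair 1 and shares of 0.90 and 0.10. The members and the rule were chosen with earlier results of these data known. Genes named in the text are those with the most reads or SNPs in each table, the nearest neighbours and those nearest the threshold. Intervals are Wilson 95% intervals, which can be too narrow for genes with several SNPs, and a count of 0 was taken to allow 3 counts. In Co, edgeR 4.0.16 (R 4.3.3) tested the accession term by quasi-likelihood, with library block and parent, at a Benjamini-Hochberg adjusted p of 0.05, after a check on simulated data. Maternal shares of equal direction numbers correlated between the Co tables across 1213 genes (Pearson r = 0.67 and 0.82, and -0.42 for both unequal pairings), which is a description. Nothing says that the Co libraries came from separate plants, so p-values measure the spread between these libraries, which may be technical. DESeq2 1.42.0, TMM, other read minimums, thresholds and SNP choices, and leaving out directions were alternatives.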

Additional observations from a re-analysis of the deposited data

How the results depend on the processing

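The number of members followed the thresholds. With at least 50 reads it was 167 (67 of the direction 1 mother), and 2 of 21 tested in Cg pair 2 met the rule there, against 4.21% of all its genes. With shares of 0.80 and 0.20 it was 412 (179), with 16 of 74 in pair 2, against 9.62%. With all SNPs of the gene it was 402 (174), of which 215 were among the 255, with 11 of 113 in pair 2, against 4.17%. With 2 or more exonic SNPs it was 140 (70), with 1 of 18 in pair 2, against 5.21%. Shares of 0.95 and 0.05 left 69 members of the direction 1 mother. With the SNP of the most reads standing for the gene it was 300 (120), of which 194 were among the 255. Of these 300, 9 of 39 tested in pair 2 met the rule there, against 15.7%. With SNPs read in both directions alone, an alternative chosen after seeing the data, 256 genes met the rule and 253 were among the 255. The Co fit called 391 of 5988 genes (6.53%) and 5 of 57 members with no minimum on reads. With at least 50 reads it called 128 of 581 genes (22.0%) and 3 of 6 members. Leaving out 1 direction in turn gave 164 to 282 Co genes and 3 to 5 members. The share called there ran from 8.88% to 23.1% of tested genes, with 15 to 20 members tested. Without the replicate block (the library term) it called 163 of 1213 genes (13.4%) and 3 of 15 members. Depth limits the comparison with the other tables, where most members had under 20 reads or no SNP.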

Other observations

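Outside the members, 632 well-read exonic SNPs of Cg pair 1 met the share rule singly, in 483 genes whose summed counts did not. The members held 391 SNPs that met it. They had 423 of the 34089 SNPs of that depth, so nearly all well-read SNPs, whether or not they met the rule, lay outside the members. In 19 of the 483 genes some SNPs pointed to the direction 1 mother and others to the direction 2 mother. Which allele such SNPs were assigned to was not checked against the parental genomes here.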
